A study of Mus musculus with 9 samples.

Results

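The genes described here are 33 genes of cholesterol and fatty acid synthesis that the SREBP transcription factors are known to control or that control SREBP itself. They were chosen by gene symbol, and all 33 were found among the 54532 genes of the deposited FPKM table (read fragments scaled for gene length and sequencing depth). The gene-level count table, which is shorter at 9877 genes, held 31 of them, without Fdps and Tm7sf2. By role, 7 encode enzymes of the mevalonate stage, 12 enzymes of the sterol stage, 8 enzymes of fatty acid synthesis and desaturation, 5 regulators, and 1, Stard4, a sterol transport protein.

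The cells were monocytic myeloid-derived suppressor cells, monocyte-like cells that restrain T cells, sorted out of tumours grown from the mouse colon carcinoma line MC38. Poly-A RNA was sequenced in 9 libraries, 3 from each of 3 groups. The SCG2 knockout group carried LILRB4+/+ together with SCG2-/-, the LILRB4 group carried LILRB4+/+ alone, and the WT group was wild type. All mice bore MC38 tumours. LILRB4 is an inhibitory immunoglobulin-like receptor of myeloid cells, and SCG2 is a secreted protein of the granin family. The sources used here do not give the nature of the LILRB4 allele, the age of the mice, the sorting gate or the mouse behind each library. A p-value below thus sets the difference between groups against the spread between libraries of a group, and this spread may be technical.

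Deposited counts summed to 14501163 to 27219202 per library. In counts recovered from FPKM, Scg2 had 0 in the 3 SCG2 knockout libraries, 1 in 1 LILRB4 library and 1 in 1 WT library, so its transcript could not check the knockout. Lilrb4a stood at 131, 146 and 157 FPKM in SCG2 knockout libraries 1 to 3, 274, 154 and 160 FPKM in LILRB4 libraries and 138, 47.7 and 74.0 FPKM in WT libraries. Lilr4b, a related gene, stood at 345, 346 and 359 FPKM in SCG2 knockout libraries. It had 640, 327 and 450 FPKM in LILRB4 libraries and 289, 137 and 149 FPKM in WT libraries. Every SCG2 knockout and LILRB4 library lay above every WT library for Lilr4b, but not for Lilrb4a. Markers of the labelled cell type were present. Csf1r had a mean of 74.8, 135 and 115 FPKM and Ly6c2 of 33.4, 49.6 and 67.9 FPKM in SCG2 knockout, LILRB4 and WT libraries. Over the 10 markers listed for it, group means ran from 7.99 FPKM (Nos2, SCG2 knockout) to 2274 FPKM (Cd14, LILRB4). Of the neutrophil markers, Ly6g averaged at most 0.07 FPKM in any group. Retnlg averaged 21.4, 93.1 and 23.2 FPKM in SCG2 knockout, LILRB4 and WT libraries. Fibroblast transcripts were present in every library, with a mean Col1a1 level of 68.5, 49.4 and 60.0 FPKM in SCG2 knockout, LILRB4 and WT libraries. In the same order Sparc, also a fibroblast marker, averaged 244, 203 and 290 FPKM, and the T cell marker Trbc2 108, 97.1 and 33.6 FPKM. The purity of the sorted cells was not tested.

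SREBP proteins are held in the endoplasmic reticulum by SCAP and the INSIG proteins while sterols are plentiful. When sterols fall, SCAP carries SREBP to the Golgi, where proteases release the part that enters the nucleus and activates the genes of sterol and fatty acid synthesis. SREBP-2, from Srebf2, acts mainly on the cholesterol genes and SREBP-1, from Srebf1, mainly on the fatty acid genes. In macrophages the pathway is known to respond to cholesterol uptake and to inflammatory signals.

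Promoter sequence was available for 26 of the 33 genes, from RefSeq on GRCm38.p6, in 34 windows that run from 250 bases before to 50 bases after a gene start. The stretches below are those of the 3 genes that passed the test in LILRB4 libraries and of 4 genes that hold the searched letters, 2 of the mevalonate stage, a regulator and a fatty acid enzyme. Capitals mark TCACNCCAC, a sterol regulatory element, CACGTG, an E-box, or CCAAT, the CCAAT box, on either strand, so that ATTGG is CCAAT read on the other strand, and adjoining or overlapping matches run together.
Idi1, chr13:8885541-8885570, plus strand, within an annotated exon: cctagccttgcctccagctgATTGGcgagc
Lss, chr10:76531505-76531587, plus strand: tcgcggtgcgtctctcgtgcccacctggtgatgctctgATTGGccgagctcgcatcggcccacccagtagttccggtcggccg
Dhcr7, chr7:143823219-143823248, plus strand, within an annotated exon: ctgtcgctgtgatgaaCACGTGgcaaaaag
Hmgcs1, chr13:119690151-119690250, plus strand: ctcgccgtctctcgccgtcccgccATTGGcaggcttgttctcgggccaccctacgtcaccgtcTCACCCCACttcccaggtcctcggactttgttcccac
Mvk, chr5:114444089-114444268, plus strand: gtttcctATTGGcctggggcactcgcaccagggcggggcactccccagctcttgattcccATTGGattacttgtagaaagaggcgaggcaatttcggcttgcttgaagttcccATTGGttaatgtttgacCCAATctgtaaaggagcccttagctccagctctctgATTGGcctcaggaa
Insig1, chr5:28071262-28071341, plus strand: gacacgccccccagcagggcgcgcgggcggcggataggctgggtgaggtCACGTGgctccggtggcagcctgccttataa
Fasn, chr11:120824548-120824647, minus strand: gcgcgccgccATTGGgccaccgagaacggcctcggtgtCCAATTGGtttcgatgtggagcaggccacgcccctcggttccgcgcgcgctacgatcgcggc

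The CCAAT box was in 64.71% of the 34 windows of these genes, against 37.41% of all 32851 windows of the same length. CACGTG was in 17.65% of these windows, against 7.15% of all windows, in Dhcr7, Hsd17b7, Sc5d, Scap and Insig1. Scap has overlapping windows that hold the same site, so this site is counted more than once. By gene, CACGTG was in 19.23% of the 26 genes, against 8.093% of all 27025 genes. TCACNCCAC was in 1 window (2.941%), that of Hmgcs1, against 1.242% of all windows. A match describes the letters in the window and does not show that a factor binds there. Nor does a window without an exact match show that the gene lacks such an element. The 7 genes without promoter sequence were not searched.

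Of all 33 genes, Scd2 had the highest level in WT libraries, at 92.5 ± 19.7 FPKM, followed by Insig1 at 73.1 ± 8.83 FPKM and Acly at 56.5 ± 8.50 FPKM (SD, n = 3). Fdps was lowest at 1.37 ± 0.465 FPKM, then Tm7sf2 at 1.64 ± 0.305 FPKM. Among paired regulators, mean WT FPKM of Srebf2 was 2.61 times that of Srebf1, and that of Insig1 was 6.93 times that of Insig2. Between replicates, the median coefficient of variation over the 33 genes was 13.1% in SCG2 knockout, 16.8% in LILRB4 and 15.0% in WT libraries. Single genes ran from 0.590% (Scap, SCG2 knockout) to 36.7% (Fdps, LILRB4).

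**Figure D1:**
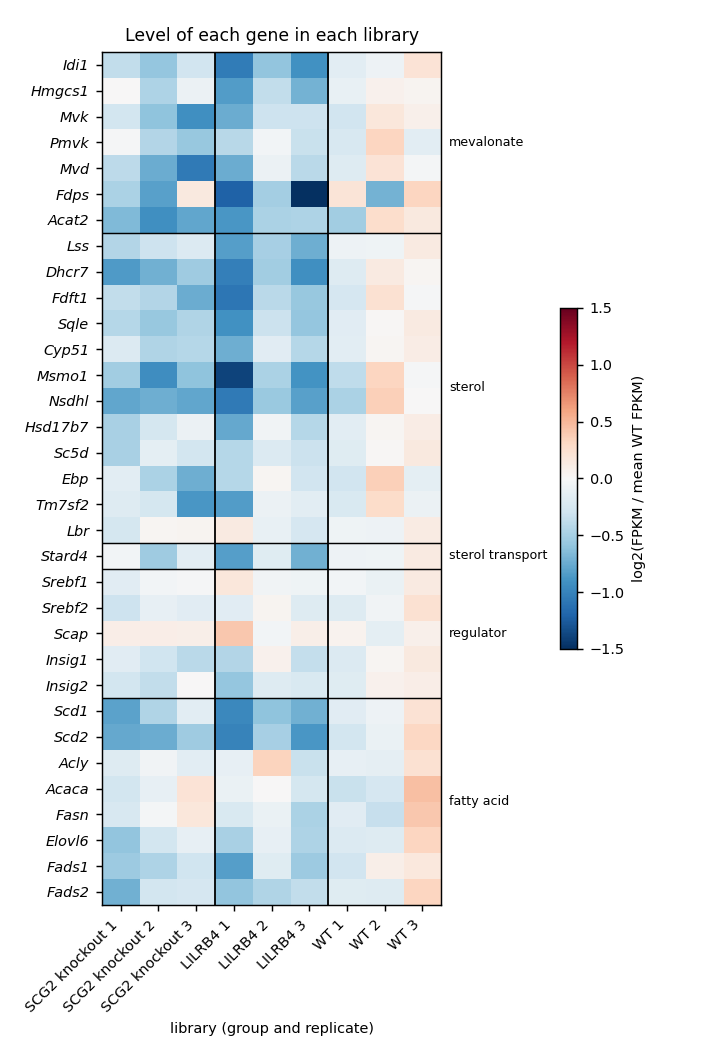
Level of each of the 33 genes (rows, grouped by role) in each of the 9 libraries (columns, SCG2 knockout, LILRB4 and WT, 3 each), coloured by log2 of FPKM over the WT mean. LILRB4 replicate 1 is the lowest library for 16 genes, and a WT library is the highest for 29.

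The comparison of LILRB4 with WT libraries asked how the LILRB4+/+ genotype went with expression in these cells. Idi1, Lss and Dhcr7, enzymes of the mevalonate and sterol stages, fell in LILRB4 libraries. They were 3 of the 31 genes in the count table, by edgeR's quasi-likelihood test with Benjamini-Hochberg adjustment over all 9877 genes and a threshold of 0.05. Over all genes tested, 0.516% were called lower. No gene of the pathway was called higher, against 1.73% of all genes. In bulk RNA, fewer cells of a type and less RNA per cell cannot be told apart.

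Idi1, the isomerase that makes the second isoprenoid building block (chromosome 13, 8885501 to 8892451 on GRCm38), stood at 6.80, 9.39 and 7.52 FPKM in LILRB4 libraries 1 to 3, against 12.6, 13.4 and 16.3 FPKM in WT libraries. Every LILRB4 library lay below every WT library. The log2 fold change was -0.86 (SE 0.16, edgeR adjusted p = 0.0320), a 1.82-fold lower count.

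Lss, lanosterol synthase, which closes the sterol ring system (chromosome 10, 76531588 to 76557138), had 3.45, 4.33 and 3.69 FPKM in LILRB4 libraries, against 5.80, 5.85 and 6.72 FPKM in WT libraries. These groups did not overlap either, and the log2 fold change was -0.71 (SE 0.14, edgeR adjusted p = 0.0324). Dhcr7, the reductase of the last step of cholesterol synthesis (chromosome 7, 143823145 to 143848410), had 3.83, 5.45 and 4.12 FPKM in LILRB4 libraries, against 6.84, 8.58 and 7.98 FPKM in WT libraries. The lowest WT library was above the highest LILRB4 library, and the log2 fold change was -0.84 (SE 0.17, edgeR adjusted p = 0.0349).

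These 3 calls rested on the choice of counts and of libraries. When counts were recovered from FPKM and gene length for all 15743 genes that passed the filter, Idi1 kept its call (edgeR adjusted p = 0.0487) and Lss and Dhcr7 did not (adjusted p = 0.0532 and 0.0572), where 0.0572% of all genes were called lower and 0.813% higher. By edgeR without SCG2 knockout replicate 2, LILRB4 replicate 1 or 3, or any 1 WT library, 0 of the 31 genes passed. Few of all genes were called lower in these fits either. The share was 0.0101% without SCG2 knockout replicate 2 and 0.0506% without WT replicate 1. It was 0% without LILRB4 replicate 1 or 3 or WT replicate 2 or 3. Without LILRB4 replicate 2, 12 passed, all lower, against 1.5% of all genes called lower and 5.48% higher. With DESeq2 10 passed, all lower, against 3.16% of all genes called lower and 6.2% higher.

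**Figure D2:**
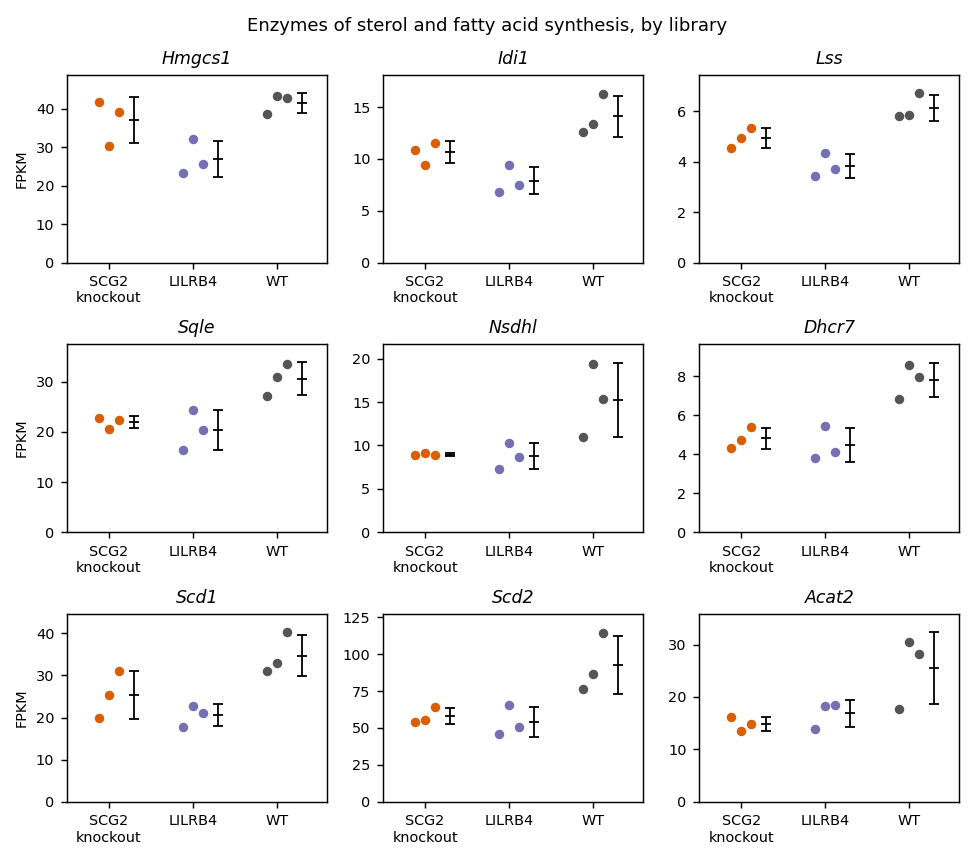
FPKM (y axis, from 0) of enzymes of the pathway in each library, by group (x axis), with points for libraries and bars for the mean ± SD of 3. The LILRB4 points of Idi1, Lss and Dhcr7 all lie below the WT points, and for Idi1 and Lss the SCG2 knockout points lie between.

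In the mevalonate stage, which builds isoprenoid units from acetyl-CoA, all 6 genes of the count table had log2 fold changes below 0, with a median of -0.54, and 1 of them, Idi1, passed. Across all genes, 52% of log2 fold changes were below 0 and the median was -0.02. Hmgcs1, HMG-CoA synthase, stood at 23.3, 32.2 and 25.5 FPKM in LILRB4 libraries, against 38.6, 43.3 and 42.7 FPKM in WT libraries. The groups did not overlap, but the log2 fold change missed the threshold at -0.65 (SE 0.16, edgeR adjusted p = 0.0609). Acat2, the cytosolic thiolase that starts the pathway, overlapped, with 13.9, 18.3 and 18.5 FPKM in LILRB4 libraries and 17.7, 30.5 and 28.2 FPKM in WT libraries. Mvk, Pmvk and Mvd, the kinases and decarboxylase between mevalonate and the isoprenoid unit, had log2 fold changes of -0.46, -0.29 and -0.42 with adjusted p of 0.199 or more. Fdps, farnesyl diphosphate synthase, had 41 to 148 recovered counts per library, and on these its log2 fold change was -1.02 (edgeR adjusted p = 0.189), and a pseudogene copy of it is annotated, so its value is uncertain.

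The sterol stage makes squalene and turns it into cholesterol. All 11 of its genes in the count table had log2 fold changes below 0, from -0.90 to -0.10 with a median of -0.62, and 2 passed. Msmo1, a sterol methyl oxidase, had the lowest value, -0.90 (SE 0.23, edgeR adjusted p = 0.0673). Sqle, squalene epoxidase, which makes the substrate of Lss, stood at 16.3, 24.4 and 20.4 FPKM in LILRB4 libraries, against 27.1, 31.0 and 33.6 FPKM in WT libraries. Its groups did not overlap, and its log2 fold change was -0.62 (SE 0.16, edgeR adjusted p = 0.0623). Nsdhl, a dehydrogenase that helps remove methyl groups from the sterol, had 7.29, 10.3 and 8.66 FPKM in LILRB4 libraries and 10.9, 19.4 and 15.3 FPKM in WT libraries. Its lowest WT library was just above its highest LILRB4 library, and the adjusted p was 0.0562. Ebp, a sterol isomerase, and Lbr, the lamin B receptor, which also has sterol reductase activity, were nearest 0 at -0.25 and -0.10. Tm7sf2, a second sterol reductase, was measured only with recovered counts, at a log2 fold change of -0.33. Stard4, which carries cholesterol between membranes, was at -0.58 on the log2 scale (SE 0.19, edgeR adjusted p = 0.113).

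The 5 regulators gave no call and no unadjusted p under 0.05. Srebf2 stood at 45.1, 52.5 and 44.4 FPKM in LILRB4 libraries and 44.4, 48.9 and 59.4 FPKM in WT libraries. Srebf1 stood at 21.9, 18.8 and 18.7 FPKM in LILRB4 libraries and 19.0, 18.1 and 21.3 FPKM in WT libraries. Both overlapped between groups, with log2 fold changes of -0.13 (SE 0.15) and -0.0065 (SE 0.13), and the sign of Srebf1 changed with the scaling of the libraries. Scap, the escort of SREBP, had 9.54, 6.99 and 7.67 FPKM in LILRB4 libraries and 7.47, 6.53 and 7.61 FPKM in WT libraries. Its log2 fold change, 0.13 (SE 0.15), was the single positive one among the 31 genes. Insig1, which retains SCAP and is itself an SREBP target, had 54.0, 76.6 and 56.9 FPKM in LILRB4 libraries and 63.5, 74.7 and 80.9 FPKM in WT libraries. Its groups overlapped, and the log2 fold change was -0.26 (SE 0.16, edgeR adjusted p = 0.350). Insig2, its paralog, had 7.08, 9.19 and 9.03 FPKM in LILRB4 libraries, against 9.29, 11.0 and 11.3 FPKM in WT libraries, 2 ranges that did not overlap but nearly met. Its adjusted p was 0.242.

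**Figure D3:**
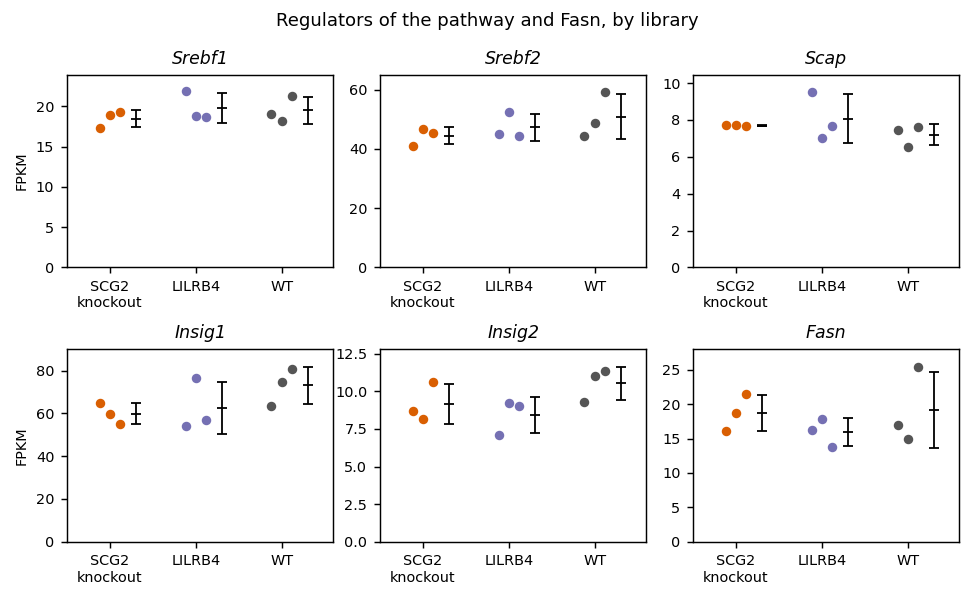
FPKM (y axis, from 0) of the 5 regulators and of Fasn in each library, by group (x axis), with points for libraries and bars for the mean ± SD of 3. LILRB4 and WT points overlap for Srebf1, Srebf2, Scap, Insig1 and Fasn, and do not for Insig2.

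Among the 8 fatty acid genes none passed, the median log2 fold change was -0.44, and the 4 desaturases had the 4 lowest values, from -0.81 to -0.49. Scd1, a stearoyl-CoA desaturase, which makes monounsaturated fatty acids, had 17.8, 22.8 and 21.1 FPKM in LILRB4 libraries, against 31.0, 32.9 and 40.3 FPKM in WT libraries. Scd2, a second desaturase of this family, had 46.1, 65.6 and 50.3 FPKM in LILRB4 libraries, against 76.5, 86.4 and 115 FPKM in WT libraries. Neither gene overlapped between the groups, and their log2 fold changes of -0.78 and -0.81 narrowly missed the threshold (SE 0.19 each, edgeR adjusted p = 0.0536 and 0.0534). Fads1 and Fads2, the desaturases of polyunsaturated fatty acids, had log2 fold changes of -0.52 and -0.49 with adjusted p of 0.121 and 0.150.

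Fasn, fatty acid synthase, had 16.3, 17.9 and 13.8 FPKM in LILRB4 libraries and 17.0, 15.0 and 25.4 FPKM in WT libraries. Acaca, acetyl-CoA carboxylase, whose product Fasn uses, had 1.82, 1.96 and 1.63 FPKM in LILRB4 libraries and 1.54, 1.64 and 2.67 FPKM in WT libraries. Both overlapped, and their high WT value came from replicate 3. Their log2 fold changes were -0.29 (SE 0.20) and -0.14 (SE 0.22), that of Acly, which makes cytosolic acetyl-CoA, was -0.05, and that of Elovl6, an elongase, was -0.38. Scd1 and Scd2 are similar in sequence, and reads shared between them may have been counted unevenly.

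Over the 31 genes, 30 log2 fold changes were below 0 and their median was -0.45, against -0.02 over all genes. At an unadjusted p under 0.05, 17 of the 31 were lower and 0 higher, against 11.3% of all genes in each direction. In FPKM, 16 of the 33 had all LILRB4 libraries below all WT libraries, against 12.4% of 15743 genes. The median stayed below 0 with each library left out, at -0.29 without LILRB4 replicate 1 and -0.57 without LILRB4 replicate 2.

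**Figure D4:**
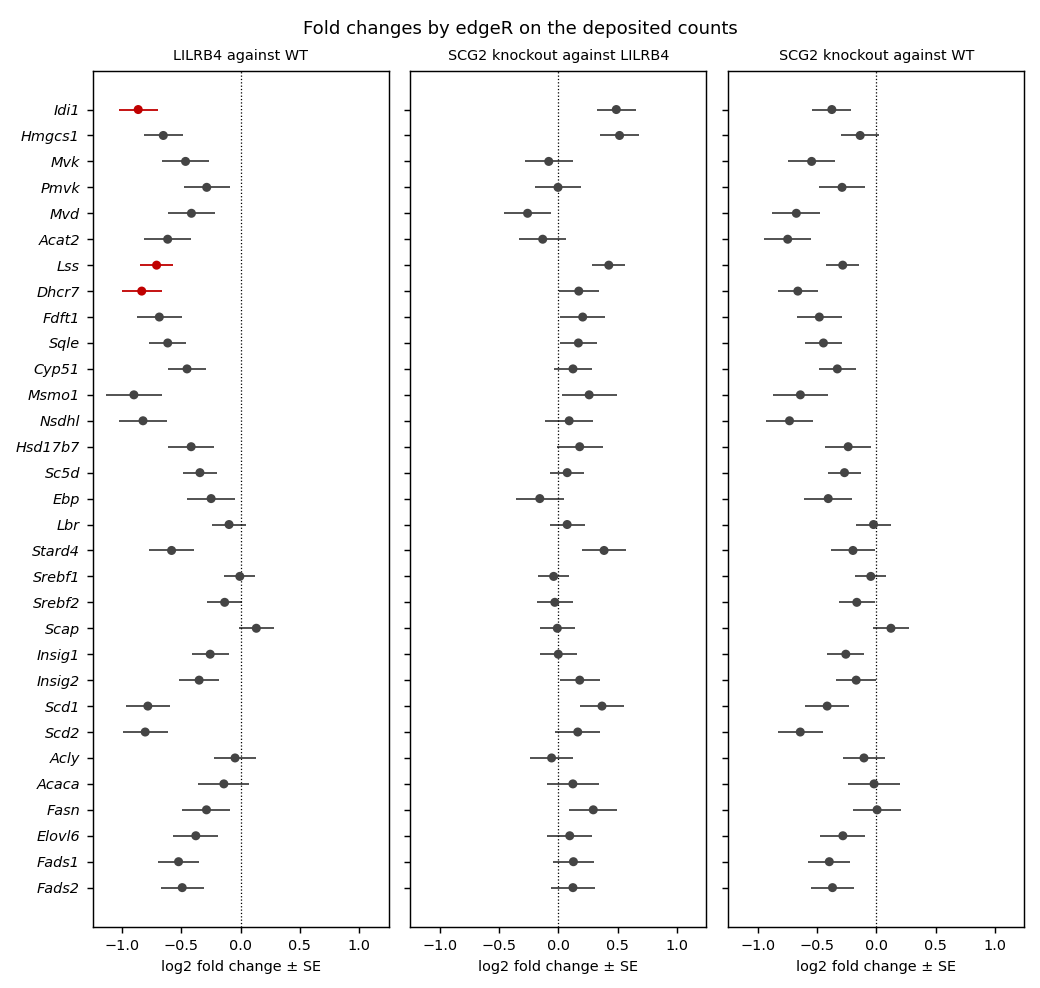
Log2 fold change ± SE (x axis) of the 31 genes of the count table (rows) in each of 3 comparisons (panels), from edgeR on the deposited counts. In LILRB4 against WT, 30 of 31 lie below 0. In SCG2 knockout against LILRB4 they lie on both sides of 0.

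The comparison of SCG2 knockout with LILRB4 libraries, in which both groups carry LILRB4+/+, asked what the loss of SCG2 adds. None of the 31 genes passed, nor did any of the 9877 genes with edgeR (0% called in each direction), while DESeq2 called 12 genes (0.121%) higher and 175 (1.77%) lower, none of them in the pathway. At an unadjusted p under 0.05, 3 genes of the pathway were higher and 0 lower, against 4.88% and 6.18% of all genes. The 3 were Hmgcs1, Lss and Idi1.

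Hmgcs1 stood at 41.6, 30.2 and 39.1 FPKM in SCG2 knockout libraries, against 23.3, 32.2 and 25.5 FPKM in LILRB4 libraries, and the log2 fold change was 0.52 (SE 0.16, edgeR adjusted p = 0.328). The ranges overlapped through SCG2 knockout replicate 2 and LILRB4 replicate 2. Lss had 4.53, 4.92 and 5.32 FPKM in SCG2 knockout libraries, against 3.45, 4.33 and 3.69 FPKM in LILRB4 libraries, and the log2 fold change was 0.42 (SE 0.14, edgeR adjusted p = 0.334). Idi1 had 10.9, 9.46 and 11.5 FPKM in SCG2 knockout libraries, against 6.80, 9.39 and 7.52 FPKM in LILRB4 libraries, and the log2 fold change was 0.49 (SE 0.16, edgeR adjusted p = 0.347). Lss and Idi1 were the 2 of 33 genes whose SCG2 knockout libraries all lay above the LILRB4 libraries, against 6.72% of all genes, and no gene had them all below, against 8.65%. For Idi1 the gap between SCG2 knockout replicate 2 and LILRB4 replicate 2 was small, at 9.46 and 9.39 FPKM.

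Over the whole pathway 10 of 31 log2 fold changes were below 0, against 44.4% of all genes. The sterol stage had 10 of 11 log2 fold changes above 0 with a median of 0.17, while the mevalonate stage had 2 of 6, with Mvd at -0.26 and Acat2 at -0.13. The fatty acid genes had a median of 0.12, with Scd1 at 0.37 and Fasn at 0.29, and the regulators lay between -0.04 and 0.18. Over the 31 genes the median was 0.12, against 0.03 over all genes. Without LILRB4 replicate 1 it was -0.0048.

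Against WT, with which the LILRB4 comparison shares its libraries, none of the 31 genes passed in SCG2 knockout libraries. No gene of the 9877 passed with edgeR (0% called in each direction), and DESeq2 called 69 (0.699%) higher and 23 (0.233%) lower, none of them in the pathway. At an unadjusted p under 0.05, 12 of the 31 were lower and 0 higher, against 6.11% and 8.47% of all genes. The smallest p belonged to Dhcr7, Acat2 and Nsdhl.

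Dhcr7 had 4.33, 4.73 and 5.39 FPKM in SCG2 knockout libraries, against 6.84, 8.58 and 7.98 FPKM in WT libraries, with a log2 fold change of -0.66 (SE 0.17). Acat2 had 16.1, 13.5 and 14.8 FPKM in SCG2 knockout libraries, against 17.7, 30.5 and 28.2 FPKM in WT libraries, with a log2 fold change of -0.75 (SE 0.20). Nsdhl had 8.84, 9.13 and 8.88 FPKM in SCG2 knockout libraries, against 10.9, 19.4 and 15.3 FPKM in WT libraries, with a log2 fold change of -0.73 (SE 0.20). The edgeR adjusted p was 0.317 for each, although none of the 3 overlapped between the groups.

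In the fatty acid branch Scd2 had 54.3, 55.2 and 64.1 FPKM in SCG2 knockout libraries, against the WT values of 76.5, 86.4 and 115 FPKM, and the log2 fold change was -0.64 (SE 0.19, edgeR adjusted p = 0.317). Scd1 had 19.8, 25.3 and 31.2 FPKM in SCG2 knockout libraries, which overlapped the WT range by a small margin. Fasn had 16.2, 18.7 and 21.4 FPKM in SCG2 knockout libraries and a log2 fold change of 0.01 (SE 0.20), whose sign changed with the scaling. Acaca had 1.61, 1.79 and 2.24 FPKM, Sqle 22.8, 20.7 and 22.5 FPKM, and Hmgcs1 had a log2 fold change of -0.14 (SE 0.16).

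The regulators in SCG2 knockout libraries stood at 41.2, 46.7 and 45.4 FPKM for Srebf2, 17.3, 18.9 and 19.2 FPKM for Srebf1 and 7.71, 7.73 and 7.65 FPKM for Scap. Insig1 stood there at 64.9, 59.5 and 55.0 FPKM and Insig2 at 8.72, 8.14 and 10.6 FPKM. None of the 5 had an unadjusted p under 0.05 against WT or LILRB4 libraries. Scap was the 1 gene whose SCG2 knockout libraries all lay above all WT libraries, against 11.6% of all genes, with a log2 fold change of 0.12 (SE 0.15).

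In FPKM, 13 of the 33 genes had all SCG2 knockout libraries below all WT libraries, against 10.4% of all genes. Of the 31 log2 fold changes, 29 were below 0, against 49.6% of all genes. Their median was -0.29, against 0.00 over all genes, with medians of -0.46 for the mevalonate stage, -0.41 for the sterol stage, -0.17 for the regulators and -0.33 for the fatty acid genes. Across the 3 groups, 22 of the 33 genes had mean FPKM in the order LILRB4, SCG2 knockout, WT from low to high, against 21.4% of all genes. Another 10, among them Mvk, Mvd and Acat2, had their lowest mean in SCG2 knockout libraries.

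Libraries of a group differed as a whole. The median over the 33 genes of log2 FPKM over the WT mean was -0.37, -0.44 and -0.28 in SCG2 knockout libraries 1 to 3, -0.74, -0.18 and -0.43 in LILRB4 libraries and -0.19, 0.02 and 0.13 in WT libraries. LILRB4 replicate 2 therefore stood level with WT replicate 1, and LILRB4 replicate 1 was lowest of all. Of the 33 genes, 30 were lower in LILRB4 replicate 1 than in LILRB4 replicate 2, and LILRB4 replicate 1 was the lowest of the 9 libraries for 16, against 17.8% of all genes. A WT library was the highest for 29, against 36.2% of all genes.

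Summed levels of other gene lists also differed between libraries. For the calls given with them, 0.813% of all genes were called higher and 0.0572% lower with recovered counts in LILRB4 against WT. The 13 T and NK cell markers summed to 579, 1061 and 1023 CPM (recovered counts scaled to the library total) in SCG2 knockout libraries, 1065, 199 and 830 CPM in LILRB4 libraries and 663, 204 and 269 CPM in WT libraries, with 13 of 13 log2 fold changes above 0 and 0 called with recovered counts in LILRB4 against WT. The 20 cell cycle genes summed to 2177, 2091 and 2348 CPM in SCG2 knockout libraries, 1498, 1856 and 1684 CPM in LILRB4 libraries and 2382, 2476 and 3025 CPM in WT libraries, and in LILRB4 against WT 0 of 20 had a log2 fold change above 0 and 2, Ccna2 and Aurka, were called lower with recovered counts. The 9 fibroblast markers summed to 2886 to 4066 CPM in SCG2 knockout, 2136 to 2863 CPM in LILRB4 and 2997 to 4044 CPM in WT libraries, with 1 of 9 log2 fold changes above 0 and 0 called in LILRB4 against WT.

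The 13 mitochondrially encoded mRNAs summed to 4800 to 11188 CPM in SCG2 knockout libraries, 10493 to 18136 CPM in LILRB4 libraries and 6894 to 10424 CPM in WT libraries, highest in LILRB4 replicate 2, and 12 of the 12 tested had log2 fold changes above 0 in LILRB4 against WT, with 0 called. The 10 neutrophil markers summed to 193 to 245 CPM in SCG2 knockout, 264 to 385 CPM in LILRB4 and 178 to 250 CPM in WT libraries. In LILRB4 against WT 8 of the 8 tested had log2 fold changes above 0, and 1, Hdc, was called higher with recovered counts (1.27, edgeR adjusted p = 0.0230). The 10 markers of the labelled cells themselves summed to 2700 to 4744 CPM in SCG2 knockout, 4874 to 7679 CPM in LILRB4 and 3696 to 6833 CPM in WT libraries, with 6 of 10 log2 fold changes above 0 and 0 called in LILRB4 against WT. The 6 dendritic cell markers summed to 207 to 350 CPM in SCG2 knockout, 69.9 to 295 CPM in LILRB4 and 103 to 192 CPM in WT libraries. In LILRB4 against WT 6 of 6 had log2 fold changes above 0, and 1, Xcr1, was called higher with recovered counts (1.70, edgeR adjusted p = 0.0320). In any library 6 endothelial markers summed to at most 86.5 CPM, 4 B cell markers to at most 14.1 CPM and 6 carcinoma markers to at most 191 CPM, with 4 of 5, 4 of 4 and 3 of 4 tested above 0 in LILRB4 against WT and 0 called. The called markers are named because of these values. No gene of these lists was at 0 in every library. In the cell cycle and fibroblast sums every LILRB4 library lay below every WT library, and in the neutrophil and mitochondrial sums above. The other sums overlapped between these groups. SCG2 knockout libraries all lay above the WT libraries in the dendritic and endothelial sums and below them in the cell cycle sum. The part of other cell types, cell cycling and RNA quality in the pathway's levels was not tested.

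**Figure D5:**
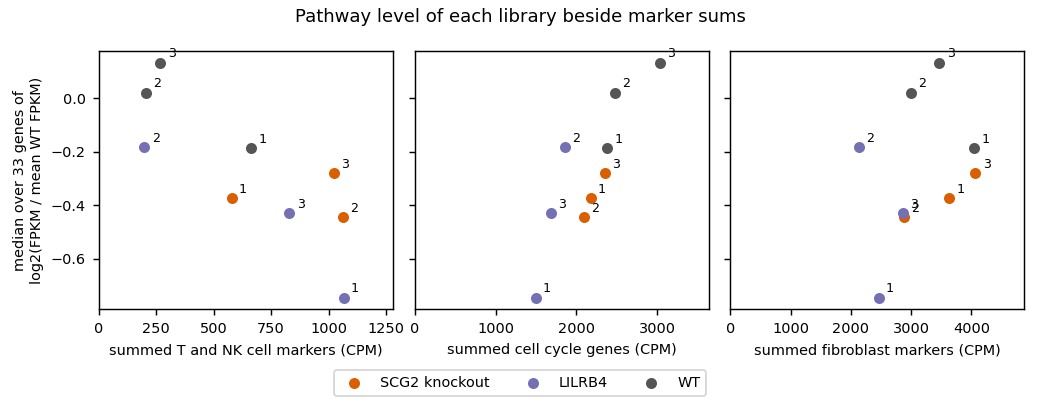
Median over the 33 genes of log2 FPKM over the WT mean (y axis) against the summed CPM of T and NK cell markers, cell cycle genes and fibroblast markers (x axes), with a point for each library, numbered by replicate and coloured by group. LILRB4 libraries 1 to 3, at -0.74, -0.18 and -0.43, have 1065, 199 and 830 CPM of T and NK cell markers. SCG2 knockout libraries 1 to 3, at -0.37, -0.44 and -0.28, have 579, 1061 and 1023 CPM. WT libraries 1 to 3, at -0.19, 0.02 and 0.13, have 663, 204 and 269 CPM. Whether the levels go together was not tested.

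Of 25 further genes of sterol and lipid handling that were listed beside the pathway, such as sterol transporters, receptors and enzymes, 21 were in the count table. In LILRB4 against WT 1 was called higher and 0 lower, against 1.73% and 0.516% of all genes. Of their log2 fold changes 7 were above 0 and 14 below, where 52% of all genes were below. The median was -0.15, against -0.02 over all genes. The called gene was Abca1, which exports cholesterol, at a mean of 25.6 FPKM in LILRB4 libraries and 11.3 FPKM in WT libraries, and the log2 fold change was 1.15 (SE 0.25, edgeR adjusted p = 0.0436). With recovered counts it was not called (edgeR adjusted p = 0.0574), and no gene of any kind passed without WT replicate 2 or without WT replicate 3. In SCG2 knockout libraries Abca1 averaged 17.2 FPKM, and 0 of the 21 were called against either LILRB4 or WT, where 0% of all genes were called.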

How the data were processed

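Poly-A RNA of sorted cells was read with a strand-specific kit, per the labels' protocols. HISAT2 2.0.5 and featureCounts 1.5.0-p3 are named in the submitters' processing notes. The sources used here do not give the genome build, annotation or strand setting, and gene coordinates matched the GRCm38 reference annotation for 98.3% of genes. The authors deposited raw counts for 9877 genes and FPKM for 54532. FPKM times gene length gave whole counts for 100% of values within 0.01 (recovered counts), and the library scaling of FPKM followed size factors, so FPKM compares levels per length. The deposited counts and recovered counts differed in 47 genes, none of them described here as a pathway gene. The count table held the 9876 protein-coding genes with 100 or more recovered counts in LILRB4 replicates 1 and 3, and 1 more gene, which favours genes expressed in LILRB4 libraries. Fdps fell short of that minimum in LILRB4 replicates 1 and 3, and Tm7sf2 in LILRB4 replicate 1 only. The count table left out 810 protein-coding genes that averaged 100 or more counts in SCG2 knockout or WT libraries. Within groups, no pair of libraries shared more than 0.466% of its counts, so none were duplicates.

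Counts were tested with edgeR 4.0.16 in R 4.3.3 (robust quasi-likelihood, TMM scaling, filterByExpr with a minimum count of 10) on all 9 libraries with 6 residual degrees of freedom, with Benjamini-Hochberg adjustment over all genes and a threshold of 0.05. The 3 comparisons share groups. The fit was tested on simulated data. Alternatives used DESeq2 1.42.0, limma 3.58.1 on log2(FPKM + 1) or log2(FPKM + 0.1), recovered counts, other filters, a replicate block and each library left out. Shares of all genes that concern FPKM or recovered counts are over 15743 genes. A count of 0 allows up to 3 counts, 0.107 to 0.200 CPM, for counting error only. The pathway genes and all lists were chosen with earlier results of these data known. Values in every library are given for genes past the threshold, the 3 smallest p in each comparison, the regulators, Scd1, Scd2, Fasn, Acaca, Sqle and Hmgcs1. Genes and promoters were matched by symbol, and 26 of 33 had a RefSeq promoter.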

Additional observations from a re-analysis of the deposited data

How the results depend on the processing

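In LILRB4 against WT, 3 pathway genes passed with edgeR on deposited counts (0.516%). All were lower, as were those called under every alternative here, and the share of all genes called lower stands in brackets. With DESeq2 10 passed (3.16%), with genes of a mean count of 500 or more 6 passed (1.15%), and with recovered counts of all genes 1 passed (0.0572%). With recovered counts and no filter, an alternative chosen after seeing the data, 9 passed (0.708%). With only the libraries of the 2 groups 0 passed (0.0304%). With limma on log2(FPKM + 1) or log2(FPKM + 0.1) 0 passed (0.0885% each), and with limma on log2(FPKM + 1) with no filter 0 passed (0%). With DESeq2 size factors, with no filter on low counts, or with recovered counts of the same genes, 3 passed (0.385%, 0.516% and 0.344%). Leaving out 1 library gave 0 to 12 (0% to 1.5%). The replicate block gave 0 pathway genes in LILRB4 against WT (0%). Same-numbered libraries correlated at -0.54 to 0.66 in their deviations from group means, against -0.71 to 0.52 for libraries of different numbers. Deviations from a mean of 3 libraries sum to 0, so these correlations cannot settle whether the numbers pair the samples. In SCG2 knockout against LILRB4, 0 passed under every alternative, the block included (0% to 1.77%, and 0% to 0.121% called higher). In SCG2 knockout against WT, 0 passed (0% to 0.233%) except with recovered counts and no filter, where Acat2 and Nsdhl did (2, against 0.142%). The cause of these changes was not tested. The median log2 fold change ran from -0.57 to -0.29 with a library left out in LILRB4 against WT, from -0.0048 to 0.20 in SCG2 knockout against LILRB4 and from -0.38 to -0.22 in SCG2 knockout against WT. Adjusted p over all alternatives in LILRB4 against WT reached 0.152 for Idi1, 0.173 for Lss and 0.182 for Dhcr7.

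The direction was followed for the 16 genes given in every library, in 3 comparisons each. Of these 48 pairs, 36 kept their direction under every alternative and 12 did not, none of the 12 past the threshold. In LILRB4 against WT, the log2 fold change of Srebf1 (-0.0065) was 0.0149 with DESeq2 size factors, 0.0146 with DESeq2, 0.0095 with recovered counts of all genes, 0.0122 with those of the same genes, 0.0148 with only the 2 groups, 0.0217 with limma on log2(FPKM + 1), with or without the filter, 0.0226 with log2(FPKM + 0.1), and -0.062 to 0.052 with a library left out, where Acaca gave -0.27 to 0.14. In SCG2 knockout against LILRB4, leaving out a library gave -0.0049 to 0.30 for Sqle, -0.060 to 0.20 for Nsdhl, -0.12 to 0.0039 for Srebf1, -0.10 to 0.032 for Srebf2, -0.12 to 0.093 for Scap, -0.13 to 0.15 for Insig1 and -0.076 to 0.20 for Acaca, and the replicate block gave 0.0026 for Scap and 0.011 for Insig1. In SCG2 knockout against WT, leaving out a library gave -0.11 to 0.011 for Srebf1, -0.20 to 0.26 for Acaca and -0.16 to 0.25 for Fasn. Fasn (0.01) was there -0.0069 with DESeq2 size factors and with DESeq2, -0.014 with recovered counts of all genes, -0.0042 with those of the same genes, -0.0048 with a mean count of 500 or more, and -0.037 with recovered counts and no filter. Depth was lowest for Fdps, at 41 to 148 recovered counts per library.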
